A study of Mus musculus with 36 samples.

Results

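The genes of retinoic acid synthesis and response were examined in cultured mouse mesenchymal stem cells (MSCs) from 4 tissues. The 9 genes were listed by name for their roles in this pathway, and all 9 were found among the 24411 genes of the RNA-seq files. MSCs had been grown from femoral bone marrow (fBM-MSCs), vertebral bone marrow (vBM-MSCs), adipose tissue (A-MSCs) and lung (P-MSCs) of 8-week-old C57BL6/J mice. The mice carried no allele and received no treatment that the labels or methods name, and the 4 tissues had been taken from the same 3 mice. Marrow was released by crushing bone and the other tissues were digested with collagenase. All cells were grown with a Rock inhibitor on collagen I and used within 3 passages, so each library is a cultured population and not the tissue itself. The RNA-seq libraries analysed numbered 2 for vBM-MSCs and 3 for each of the other tissues, and ATAC-seq gave 1 pooled list of accessible sites per tissue. In such bulk cultures, fewer cells of a type and less RNA per cell cannot be told apart.

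Retinoic acid is made from vitamin A in a pair of oxidations. Retinol dehydrogenases such as RDH10 turn retinol into retinal, and the retinaldehyde dehydrogenases ALDH1A1, ALDH1A2 and ALDH1A3 turn retinal into retinoic acid. CRABP1 and CRABP2 bind retinoic acid in the cytoplasm, CRABP2 being known for handing it to nuclear receptors. CYP26A1 and CYP26B1 break it down. The receptors (RARs, paired with RXRs) bind DNA at retinoic acid response elements, and Rarb and Cyp26a1 are textbook targets that retinoic acid itself induces.

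Depth ranged from 19569650 to 40517739 expected counts per RNA-seq library, with a median of 34414200. The 8 MSC marker genes examined, among them Itgb1, Cd44 and Ly6a, were above 0 in all 11 libraries. Ptprc, the pan-leukocyte gene, did not exceed 0.35 TPM (length-scaled transcript abundance, set to a fixed sum in each library) in any library. Levels of the MSC markers were not alike. Pdgfra was 0.27, 0.76 and 0.75 TPM in fBM-MSCs and 7.93, 6.37 and 7.72 TPM in A-MSCs. Thy1 was 1.21 TPM in fBM-MSC replicate 3, beside 15.0 and 17.2 TPM in replicates 1 and 2. Ly6a was 42.3 to 46.5 TPM in P-MSCs and 256 to 480 TPM in fBM-MSCs. The summed TPM of 8 mesothelial markers was 120 to 171 in A-MSCs, 76.2 to 99.1 in P-MSCs, 18.9 to 23.9 in vBM-MSCs and 2.32 to 14.7 in fBM-MSCs. Of these 8 genes, none was at 0 in A-MSCs, 3 to 5 were at 0 in P-MSCs, and 5 or 6 in the marrow cultures. Wt1, a marker of mesothelium that some other cells also express, was read at 10.6, 14.9 and 11.7 TPM in A-MSCs and at 0 in the other 8 libraries. The 6 epithelial markers summed to 16.0 to 30.5 TPM in A-MSCs, led by Krt18 and then Krt14, and to at most 1.32 TPM elsewhere, with Sftpc at 0 in all libraries. Epcam did not exceed 0.41 TPM in any library, and Cdh1 was above 0 only in A-MSC replicate 2 (0.22 TPM). The 6 endothelial markers summed to 3.40 to 55.3 TPM in A-MSCs, 2.55 to 8.29 in P-MSCs and at most 1.19 in the marrow cultures. The highest value rests on Emcn in A-MSC replicate 1 (49.5 TPM), and Kdr was higher in P-MSCs (2.33 to 2.84 TPM) than in A-MSCs (0.16 to 0.55 TPM). The 5 adipocyte markers, mostly Fabp4, summed to 42.8 to 158 TPM in A-MSCs, 27.4 to 64.2 in fBM-MSCs, 22.0 to 63.0 in vBM-MSCs and 2.68 to 3.84 in P-MSCs. The 7 macrophage markers summed to 17.8 to 27.1 TPM in A-MSCs, 15.0 to 16.9 in P-MSCs, 40.5 to 52.1 in fBM-MSCs and 24.4 to 45.2 in vBM-MSCs, and Itgam and Adgre1 were at or near 0 in all libraries. Lyz2 was the largest part of the marrow sums. Cd68 came next in fBM-MSCs (12.3 to 18.5 TPM) but was 0.87 and 2.72 TPM in vBM-MSCs. Csf1r was higher in A-MSCs (5.46 to 6.56 TPM) than in fBM-MSCs (0.60 to 0.89 TPM) or vBM-MSCs (1.16 and 0.61 TPM). The part of such cells in the retinoid results was not tested.

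The tissues differed in which of the retinoic acid genes they expressed most. A-MSCs held the most Aldh1a3 and, with P-MSCs, the most Aldh1a2. Both marrow cultures held Crabp2 and Cyp26b1, P-MSCs held Crabp1, and Aldh1a1 was highest in vBM-MSCs and A-MSCs. Across the 4 tissues, 7 of the 8 members tested passed edgeR's quasi-likelihood test at an adjusted p under 0.05, beside 60.6% of all 12509 genes tested. Rarb, at an adjusted p of 0.0835, did not, and Cyp26a1 was too low to test. A filter of 1 CPM (counts scaled to library size) in at least 2 libraries came before the tests. Crabp1 passed it only through P-MSCs, Rarb only through fBM-MSCs and Crabp2 only through the marrow cultures, so their count is no evidence about the group.

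**Figure D1:**
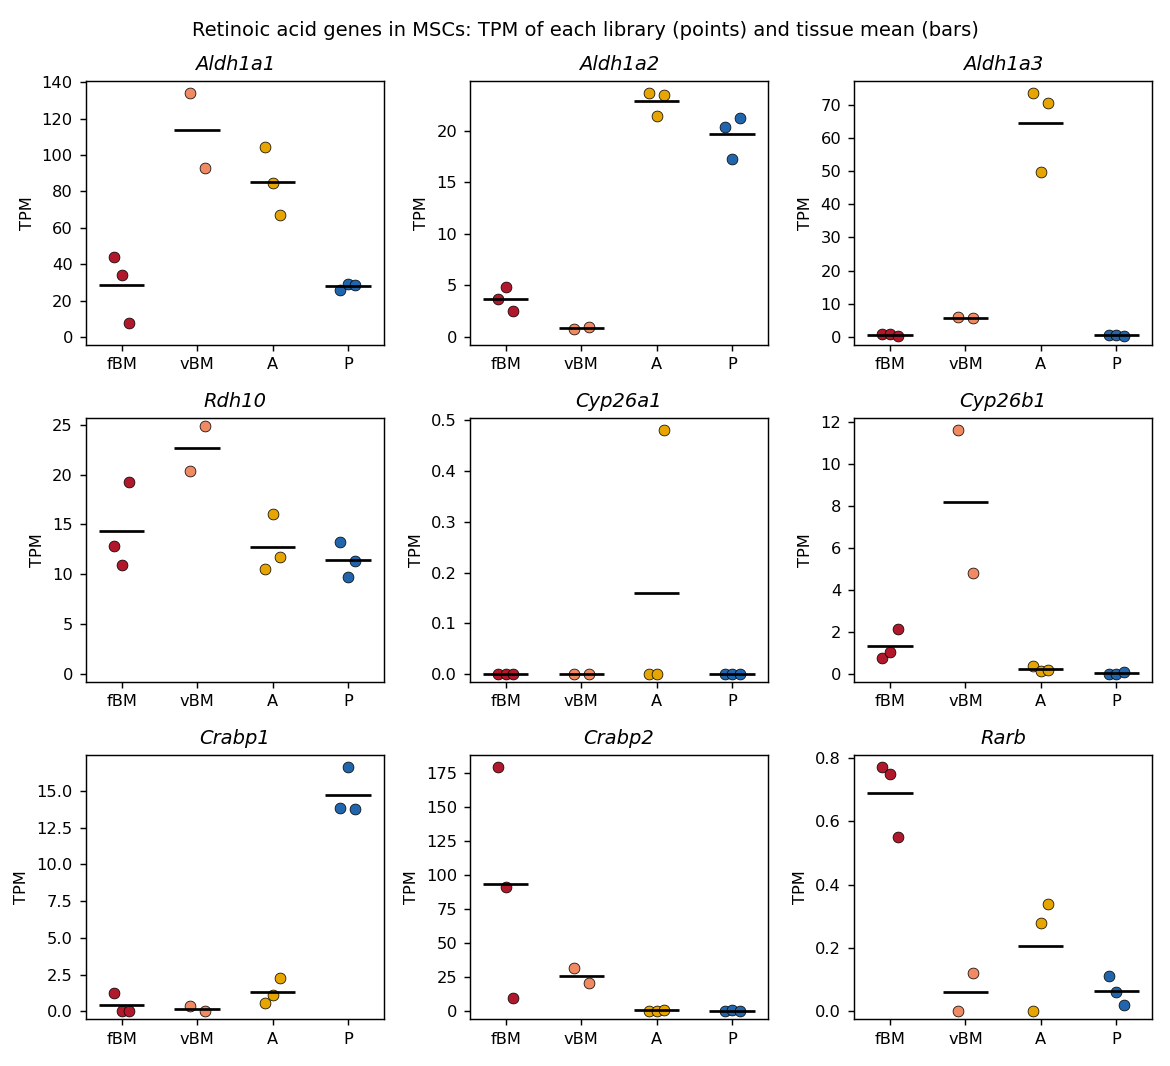
TPM of the 9 members in each RNA-seq library (points) by tissue of origin, with the tissue mean as a bar. Each panel has its own vertical axis from 0. Aldh1a3 is high in the 3 A-MSC libraries (49.6 to 73.5 TPM), Crabp1 in the 3 P-MSC libraries (13.8 to 16.6 TPM) and Crabp2 in the marrow libraries (9.41 to 179 TPM).

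Between pairs of tissues, the members called higher were counted beside the share of all genes called in the same direction. Against vBM-MSCs, fBM-MSCs had 1 member higher, beside 5.24% of all genes, and 3 lower, beside 7.56%. Against A-MSCs, fBM-MSCs had 2 higher (20.6% of all genes) and 3 lower (20.3%). Against P-MSCs, fBM-MSCs had 3 higher (24.7%) and 2 lower (23%). vBM-MSCs had 2 higher (13.2%) and 2 lower (12.4%) than A-MSCs. They had 5 higher (21%) and 2 lower (17.7%) than P-MSCs. A-MSCs had 3 higher (16%) and 1 lower (14.9%) than P-MSCs. Of the genes called in that last comparison, the share on the A-MSC side was 51.7%, and 30.1% on the TPM scale. That fit used limma on log2(TPM + 1), so unit and test changed together, and the median gene was at -0.16 on the log2 scale. With RLE scaling of the counts the share was 52.5%. In the TPM fit the share higher in the first tissue also moved from 51.8% to 42.4% for fBM-MSCs against P-MSCs, from 54.3% to 45.6% for vBM-MSCs against P-MSCs and from 51.5% to 61.4% for vBM-MSCs against A-MSCs. The 6 comparisons share their libraries and are not independent of each other.

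**Figure D2:**
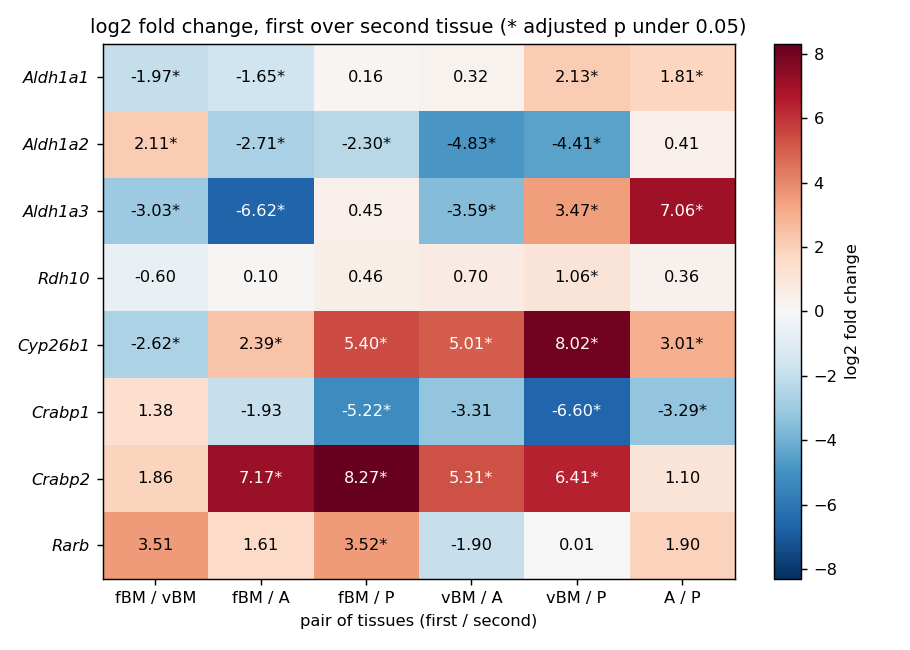
Fitted log2 fold change of the 8 tested members (rows) for each pair of tissues (columns, first over second), with red for higher in the first tissue and an asterisk for an adjusted p under 0.05. Rdh10 has 1 asterisk, between vBM-MSCs and P-MSCs, and Aldh1a2 and Aldh1a3 have 5 each.

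Rdh10 encodes the retinol dehydrogenase of the first step, and it changed the least of the tested members between the highest and lowest tissue. It measured 12.9, 10.9 and 19.2 TPM in fBM-MSCs, 20.4 and 24.9 TPM in vBM-MSCs, 10.5, 16.1 and 11.8 TPM in A-MSCs, and 13.2, 9.69 and 11.4 TPM in P-MSCs. Both vBM-MSC libraries lay above the other 9, although fBM-MSC replicate 3 came close to them, and the other 3 tissues overlapped. Expression was 2.08-fold higher in vBM-MSCs than in P-MSCs (log2 difference 1.06 ± 0.26 SE, adjusted p = 0.0069, edgeR). The log2 difference of vBM-MSCs over A-MSCs was 0.70 ± 0.26 with an adjusted p of 0.0648, and the other 4 pairs had adjusted p-values from 0.13 to 0.76. The test across the 4 tissues (adjusted p = 0.0216) did not pass without vBM-MSC replicate 1 (0.0611) or 2 (0.0853), or P-MSC replicate 2 (0.0595) or 3 (0.0544). The pair of vBM-MSCs and A-MSCs passed without fBM-MSC replicate 2 (0.0448) or 3 (0.0262) or A-MSC replicate 2 (0.0426), with DESeq2 (0.0489), on the TPM scale (0.0314) and in a fit of those tissues alone (0.0473). Without fBM-MSC replicate 3 the pair of fBM-MSCs and vBM-MSCs passed (0.0320), and without replicate 2 that of fBM-MSCs and P-MSCs (0.0408).

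The 3 retinaldehyde dehydrogenases catalyse the same step and were used in different proportions. Aldh1a1 measured 43.9, 34.3 and 7.78 TPM in fBM-MSCs, 134 and 92.8 TPM in vBM-MSCs, 104, 84.5 and 66.8 TPM in A-MSCs, and 26.0, 29.2 and 28.4 TPM in P-MSCs. The vBM-MSC and A-MSC libraries overlapped each other and lay above all others, while fBM-MSC replicate 3 was the lowest of the 11 libraries. Aldh1a1 was higher in vBM-MSCs than in P-MSCs by 2.13 ± 0.50 on the log2 scale (adjusted p = 0.0057) and higher in A-MSCs than in P-MSCs by 1.81 ± 0.46 (adjusted p = 0.012). It was lower in fBM-MSCs than in A-MSCs (log2 difference -1.65 ± 0.46, adjusted p = 0.014) and than in vBM-MSCs (-1.97 ± 0.50, adjusted p = 0.025). The last difference did not pass without fBM-MSC replicate 2 (adjusted p = 0.0556) or vBM-MSC replicate 1 (0.170), nor in a fit of the marrow libraries alone (0.155). Between fBM-MSCs and P-MSCs the log2 difference was 0.16 ± 0.45, and the pair passed without fBM-MSC replicate 3 (adjusted p = 0.0442). Aldh1a1 shares reads with its near-identical copy Aldh1a7, whose counts were 0.843% to 16.5% of those of Aldh1a1, and the counts of both were fractional in all 11 libraries, so their split is uncertain. A pair of long noncoding RNA genes and a pseudogene also overlap Aldh1a1, and the libraries do not mark strand.

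Aldh1a2 split the non-marrow from the marrow cultures. It measured 23.6, 21.4 and 23.4 TPM in A-MSCs, 20.4, 17.3 and 21.2 TPM in P-MSCs, 3.70, 4.84 and 2.51 TPM in fBM-MSCs, and 0.73 and 1.01 TPM in vBM-MSCs. No tissue's range overlapped another's, though those of A-MSCs and P-MSCs nearly touched. Aldh1a2 was 28.4-fold higher in A-MSCs than in vBM-MSCs (log2 difference 4.83 ± 0.29, adjusted p = 2.6e-06) and 21.3-fold higher in P-MSCs than in vBM-MSCs (4.41 ± 0.28, adjusted p = 1.4e-06). It was 6.56-fold higher in A-MSCs (2.71 ± 0.21, adjusted p = 5.2e-06) and 4.92-fold higher in P-MSCs (2.30 ± 0.21, adjusted p = 7.6e-06) than in fBM-MSCs. Within marrow, fBM-MSCs exceeded vBM-MSCs 4.33-fold (2.11 ± 0.27, adjusted p = 0.00065), a call lost in a fit of the marrow libraries alone (0.0776). A-MSCs exceeded P-MSCs by 0.41 ± 0.20 (adjusted p = 0.13), which passed without fBM-MSC replicate 3 (0.0456) and in a fit of those tissues alone (0.0168).

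Aldh1a3 was an A-MSC gene. Its A-MSC libraries read 73.5, 49.6 and 70.6 TPM, its vBM-MSC libraries 5.87 and 5.71 TPM, its fBM-MSC libraries 0.98, 0.78 and 0.40 TPM, and its P-MSC libraries 0.72, 0.55 and 0.37 TPM. The lowest A-MSC library was above the highest of the other 8, and both vBM-MSC libraries were above all fBM-MSC and P-MSC libraries, which overlapped. A-MSCs exceeded P-MSCs by 7.06 ± 0.34 (134-fold, adjusted p = 5.5e-07), fBM-MSCs by 6.62 ± 0.34 (98.1-fold, adjusted p = 4.5e-07) and vBM-MSCs by 3.59 ± 0.33 (adjusted p = 3.7e-05) on the log2 scale. vBM-MSCs exceeded fBM-MSCs 8.16-fold (adjusted p = 0.00025) and P-MSCs 11.1-fold (adjusted p = 1.5e-05). All 5 calls held with each library left out. Of the marker lists given above, the mesothelial and epithelial sums were also higher in every A-MSC library than in any other library. The endothelial and adipocyte sums reached their highest values in A-MSCs too, with ranges that overlapped those of other tissues. Krt19, of the mesothelial list, went the other way, at 51.7 to 59.8 TPM in P-MSCs and 17.1 to 18.9 TPM in A-MSCs.

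Summed over the 3 enzymes, TPM was 173 ± 25.1 (SD, n = 3) in A-MSCs, 48.0 ± 1.67 (n = 3) in P-MSCs, 33.1 ± 19.9 (n = 3) in fBM-MSCs and 120 ± 29.2 (n = 2) in vBM-MSCs. Aldh1a1 supplied 94.3% of this sum in vBM-MSCs and 83.0% in fBM-MSCs, but 58.0% in P-MSCs and 49.2% in A-MSCs. The rest was mostly Aldh1a3 in A-MSCs, at 37.4% beside 13.4% of Aldh1a2, and Aldh1a2 in P-MSCs, at 40.8% beside 1.15% of Aldh1a3. In the 3 A-MSC libraries the Aldh1a3 share ran from 31.9% to 43.9%, and in the 3 P-MSC libraries the Aldh1a2 share ran from 36.7% to 43.3%. These are shares of mRNA, not of enzyme activity.

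**Figure D3:**
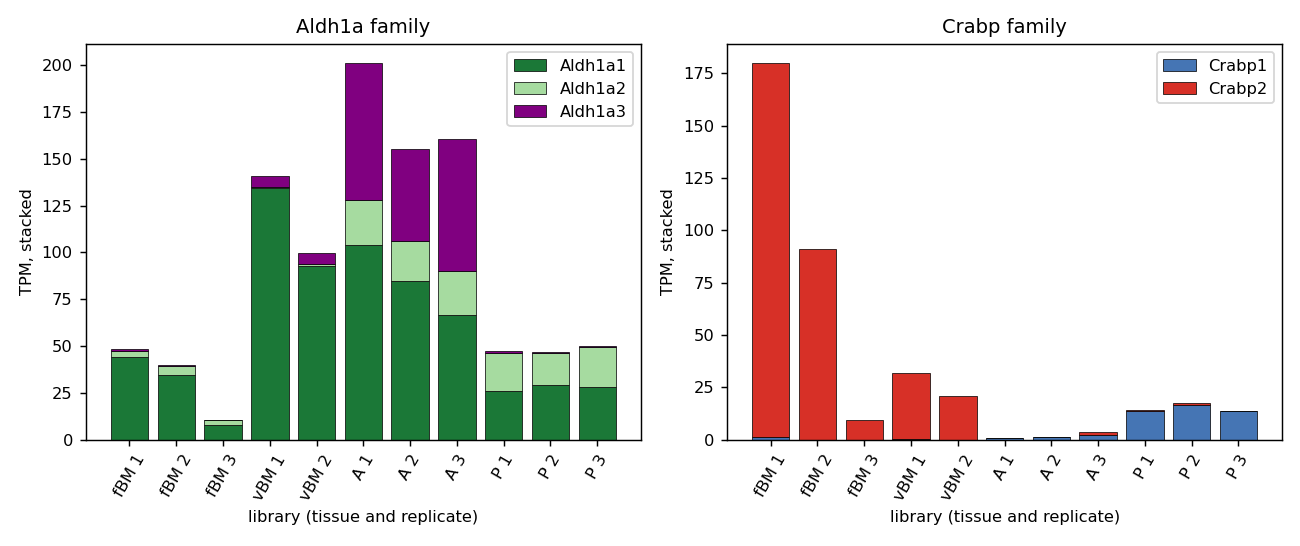
Stacked TPM of the Aldh1a genes (left) and the Crabp genes (right) in each RNA-seq library, named by tissue and replicate. Aldh1a3 forms 37.4% of the Aldh1a sum in A-MSCs, Aldh1a2 forms 40.8% in P-MSCs, and the Crabp bars are almost all Crabp2 in marrow and Crabp1 in P-MSCs.

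Of the 2 enzymes of degradation, Cyp26a1 was at or near 0 and Cyp26b1 was highest in vBM-MSCs. Cyp26a1, the classical retinoic acid-induced hydroxylase, had no count in 10 of 11 libraries and 19 counts (0.48 TPM) in A-MSC replicate 3. With no count, up to 3 counts cannot be told from 0, which is 0.0740 to 0.153 CPM at these depths. Cyp26b1, which has the same function, measured 11.6 and 4.80 TPM in vBM-MSCs, 0.78, 1.05 and 2.14 TPM in fBM-MSCs, 0.37, 0.15 and 0.21 TPM in A-MSCs, and 0.00, 0.01 and 0.09 TPM in P-MSCs. The 4 ranges did not overlap, in the order vBM-MSCs, fBM-MSCs, A-MSCs and P-MSCs. vBM-MSCs exceeded A-MSCs by 5.01 ± 0.77 on the log2 scale (32.2-fold, adjusted p = 0.00094) and P-MSCs by 8.02 ± 0.93 (adjusted p = 6.0e-05). fBM-MSCs exceeded P-MSCs by 5.40 ± 0.86 (adjusted p = 0.00036).

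The P-MSC level of Cyp26b1 rests on 11 counts, 10 of them in replicate 3. Without that library the log2 differences over P-MSCs became 10.59 for vBM-MSCs, 7.97 for fBM-MSCs and 5.58 for A-MSCs. Without P-MSC replicate 1 they were 7.39, 4.78 and 2.38, and without vBM-MSC replicate 1 that of vBM-MSCs was 7.12 over P-MSCs and 4.11 over A-MSCs. The smaller steps were less stable. vBM-MSCs over fBM-MSCs, 2.62 ± 0.69 (adjusted p = 0.031), did not pass without fBM-MSC replicate 1 (0.0702) or 2 (0.0931), without vBM-MSC replicate 1 (0.322, log2 difference of fBM-MSCs over vBM-MSCs -1.72) or in a fit of the marrow libraries alone (0.0630). fBM-MSCs over A-MSCs, 2.39 ± 0.69 (adjusted p = 0.016), did not pass without fBM-MSC replicate 3 (0.0525) or A-MSC replicate 2 (0.0607) or 3 (0.0537). A-MSCs over P-MSCs, 3.01 ± 0.88 (adjusted p = 0.023), did not pass without A-MSC replicate 1 (0.0763) or P-MSC replicate 1 (0.0704) or 2 (0.0819), nor on the TPM scale (0.486).

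The cellular retinoic acid binding proteins were divided between marrow and lung. Crabp2 measured 179, 91.2 and 9.41 TPM in fBM-MSCs, 31.5 and 20.8 TPM in vBM-MSCs, 0.42, 0.17 and 1.23 TPM in A-MSCs, and 0.16, 0.88 and 0.00 TPM in P-MSCs. Every marrow library was above every A-MSC and P-MSC library, but the fBM-MSC libraries spread widely among themselves and enclosed the vBM-MSC range. The log2 difference over P-MSCs was 8.27 ± 1.22 for fBM-MSCs (adjusted p = 0.00021) and 6.41 ± 1.21 for vBM-MSCs (adjusted p = 0.0016). Over A-MSCs it was 7.17 ± 1.13 for fBM-MSCs (adjusted p = 0.0005) and 5.31 ± 1.12 for vBM-MSCs (adjusted p = 0.0056). All 4 calls held with each library left out, with values that moved. Without A-MSC replicate 3 the differences over A-MSCs were 8.23 and 6.37, without P-MSC replicate 2 those over P-MSCs were 10.02 and 8.16, and without fBM-MSC replicate 1 those of fBM-MSCs were 6.21 over A-MSCs and 7.30 over P-MSCs. fBM-MSCs exceeded vBM-MSCs by 1.86 ± 0.96 (adjusted p = 0.23), a difference that passed without fBM-MSC replicate 3 (adjusted p = 0.0304). That library was also the lowest in Aldh1a1.

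Crabp1 showed the opposite distribution. It measured 13.8, 16.6 and 13.8 TPM in P-MSCs, 0.55, 1.10 and 2.27 TPM in A-MSCs, 1.24, 0 and 0 TPM in fBM-MSCs, and 0.34 and 0 TPM in vBM-MSCs. The 3 P-MSC libraries stood apart from the other 8, which overlapped. The P-MSC libraries together held 582 counts, against 9 in fBM-MSCs and 3 in vBM-MSCs. Per unit of depth, the ratio of counts was 121 over vBM-MSCs (95% exact interval 41.0 to 586) and 54.0 over fBM-MSCs (28.3 to 119). These intervals cover counting error only. By edgeR, Crabp1 was lower than in P-MSCs in fBM-MSCs (log2 difference -5.22 ± 1.34, adjusted p = 0.0073), in vBM-MSCs (-6.60 ± 1.74, adjusted p = 0.011) and in A-MSCs (-3.29 ± 1.16, adjusted p = 0.0495).

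The A-MSC call for Crabp1 was lost with any A-MSC replicate left out (0.134, 0.120 and 0.0688 without replicates 1, 2 and 3) or any P-MSC replicate (0.107, 0.119 and 0.104). Adding the replicate number to the model also ended it (0.0771). The vBM-MSC call was lost without vBM-MSC replicate 2 (0.0587, log2 difference -5.50), and without vBM-MSC replicate 1 (0.0252) the remaining library had no count, so that the fitted log2 difference of -10.44 depends on the prior count and is no bound. Without fBM-MSC replicate 1, which held all 9 counts, the pair of fBM-MSCs and A-MSCs passed (0.00779), where all libraries gave -1.93 ± 1.28 (adjusted p = 0.25). The fitted difference of fBM-MSCs over P-MSCs was then -10.48 (0.000611), likewise against libraries with no count. Without fBM-MSC replicate 2 or 3, the log2 difference of fBM-MSCs over P-MSCs was -4.54 or -4.53, and without A-MSC replicate 3 that of A-MSCs over P-MSCs was -3.98. Of the Crabp sum, Crabp2 formed 99.8% in fBM-MSCs, 99.5% in vBM-MSCs, 2.06% in P-MSCs and 30.6% in A-MSCs. By library the Crabp2 share ran from 0% to 5.03% in P-MSCs. It ran from 13.4% to 43.3% in A-MSCs, where the sum was 0.97 to 3.50 TPM.

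Rarb, the retinoic acid receptor gene that the hormone induces, was low throughout. It measured 0.77, 0.75 and 0.55 TPM in fBM-MSCs, 0.00 and 0.12 TPM in vBM-MSCs, 0.00, 0.28 and 0.34 TPM in A-MSCs, and 0.11, 0.06 and 0.02 TPM in P-MSCs. The 3 fBM-MSC libraries were above the other 8, which overlapped one another. fBM-MSCs held 110 counts and P-MSCs 13, and the fitted log2 difference of 3.52 ± 1.34 had an adjusted p of 0.0489. This call was lost without the filter (0.0829) and with the replicate number added to the model (0.0806). It was also lost without fBM-MSC replicate 3 (0.0570), A-MSC replicate 2 (0.0591) or 3 (0.0558), or P-MSC replicate 1 (0.0804, log2 difference 4.12), 2 (0.115) or 3 (0.140). On the TPM scale, fBM-MSCs also passed against vBM-MSCs (0.0155) and A-MSCs (0.0160), which the counts did not (0.17 and 0.31). Across the 4 tissues, Rarb passed with DESeq2 (0.0481), on the TPM scale (0.00536), and without vBM-MSC replicate 2 (0.0375) or A-MSC replicate 1 (0.0342). A difference in Rarb was thus barely detectable at this depth. The gene spans 651493 bases and overlaps 4 annotated pseudogenes.

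The promoters of Rarb and Cyp26a1 are shown because each held a DR5 repeat, the classical form of a retinoic acid response element. The repeat was searched as same-strand copies of any of AGGTCA or AGTTCA or GGGTCA or GGTTCA with 5 bases between them (DR5), on both strands and allowing overlaps. Sequences are from RefSeq on GRCm38.p6. Each line gives the 120 bases before a transcription start, 5′ to 3′ on the strand of the gene, with the half-sites of the DR5 in capitals. The Rarb stretch is chr14:16575477-16575596 on the minus strand, and the Cyp26a1 stretch is chr19:37697688-37697807 on the plus strand.
Rarb: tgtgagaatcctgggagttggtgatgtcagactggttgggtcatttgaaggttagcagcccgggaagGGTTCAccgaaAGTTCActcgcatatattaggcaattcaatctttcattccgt
Cyp26a1: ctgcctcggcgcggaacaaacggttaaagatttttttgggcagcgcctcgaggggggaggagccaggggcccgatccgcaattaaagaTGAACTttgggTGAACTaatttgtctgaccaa
The Rarb repeat ran from base -53 to base -37 relative to the start and read on the strand of the gene. The Cyp26a1 repeat ran from -32 to -16 and read on the opposite strand. A DR5 of this kind was present in 27 of 31396 RefSeq promoter windows of 250 bases before to 50 after a start (0.0860%). The same half-sites 1 base apart (DR1) were found in 0.229% and 2 bases apart (DR2) in 0.271%. Windows of Cyp26b1, Crabp1 and Aldh1a2 and both windows of Aldh1a1 held none of the 3. A match is a description of letters and not a bound site.

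The accessible sites around the members came from pooled lists, 1 per tissue, so they have no replicate error and no test was made. Each tissue's list joined 6 ATAC-seq samples, from 3 replicates. A summit is the highest point of a called region, and its fold enrichment is pileup over the genome-wide background. Summits with a −log10 q of at least 7 numbered 71345 in A-MSCs, 64057 in P-MSCs, 64300 in fBM-MSCs and 59536 in vBM-MSCs. They were 58.0% (fBM-MSCs) to 63.7% (P-MSCs) of each deposited list. A site called absent or not listed in a tissue had no summit past this threshold there, and a weaker one is possible. Sites at 5.52-fold lay close to the threshold, with a −log10 q of 7.14 in fBM-MSCs and 7.24 in A-MSCs. A summit lay within 1 kb of a curated start in 5 of 9 members in A-MSCs, 4 in P-MSCs, 2 in fBM-MSCs and 3 in vBM-MSCs. The same held for 89.6%, 88.8%, 87.1% and 89.0% of 11519 genes tested in the RNA-seq, in that order. These expressed genes are no matched group, since several members were low or absent in a given tissue. Joining summits within 250 bases, 83 sites lay in the members or within 10 kb of them, of which 22 were found in all 4 tissues and 28 in 1. The same shares were not computed over all sites, so these counts are no result about the members. The position of a joined site is the median of its summits, and its enrichment in a tissue is that of the highest summit there.

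Rdh10 and Rarb had a promoter summit in every tissue. At Rdh10, chr1:16105882-16132550, the summit nearest the start was 7 bases before it in A-MSCs (20.2-fold), 152 bases in P-MSCs (13.2-fold), 133 bases in fBM-MSCs (17.7-fold) and 63 bases in vBM-MSCs (18.8-fold). The highest summit was farther upstream, 977 to 1031 bases before the start, and reached 34.6-fold in A-MSCs, 35.7-fold in P-MSCs, 25.4-fold in fBM-MSCs and 27.2-fold in vBM-MSCs. At the Rarb start whose sequence is printed above, the enrichment was 14.7-fold in A-MSCs, 10.7-fold in P-MSCs, 9.93-fold in fBM-MSCs and 9.20-fold in vBM-MSCs. The summit was 40 bases before the start in fBM-MSCs and 62 bases before it in A-MSCs, so that the DR5 at chr14:16575513-16575529 lay within 100 bases of both. The called regions of P-MSCs and vBM-MSCs contained this repeat too. The Rarb start was the only one of the 83 sites with such a repeat near a summit, while 0.0756% to 0.0980% of all summits had a DR5. Accessibility of the Rarb promoter was thus recorded in all 4 tissues, including vBM-MSCs with 8 counts of its mRNA. Rarb also held the most sites of any member, 38, in by far the longest gene.

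The Aldh1a genes differed at their starts. Aldh1a1, chr19:20492583-20643463, has 2 annotated starts, and the summits were at the upstream one, enriched 9.20-fold in A-MSCs, 8.09-fold in vBM-MSCs and 6.25-fold in P-MSCs, with none there in fBM-MSCs. No tissue had a summit within 1 kb of the second start, at base 20601968. Its strongest sites were in introns, at 44182 bases after the upstream start (23.5-fold in A-MSCs, 21.0-fold in P-MSCs, 6.62-fold in fBM-MSCs and 6.25-fold in vBM-MSCs) and 12584 bases after the second start (20.6-fold in A-MSCs, 14.0-fold in P-MSCs and 13.6-fold in vBM-MSCs, not listed in fBM-MSCs). P-MSCs thus held these sites with 27.9 ± 1.66 TPM of Aldh1a1 (SD, n = 3), about the mean of fBM-MSCs. Aldh1a3, chr7:66390892-66427477, had a promoter summit in A-MSCs (8.46-fold) and in P-MSCs (8.09-fold), although P-MSCs had 0.547 ± 0.175 TPM of its mRNA (SD, n = 3). Its 3 downstream sites were shared by all 4 tissues.

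Aldh1a2, chr9:71215789-71296243, had no promoter summit in any tissue, A-MSCs and P-MSCs included. An intronic site 73208 bases after its start was listed in all 4, at 22.4-fold in P-MSCs, 17.3-fold in A-MSCs, 11.4-fold in fBM-MSCs and 9.93-fold in vBM-MSCs. The pair of tissues with more Aldh1a2 mRNA had the higher values. A second intronic site, 54126 bases after the start, was listed only for the marrow cultures, at 5.52-fold and 7.73-fold.

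**Figure D4:**
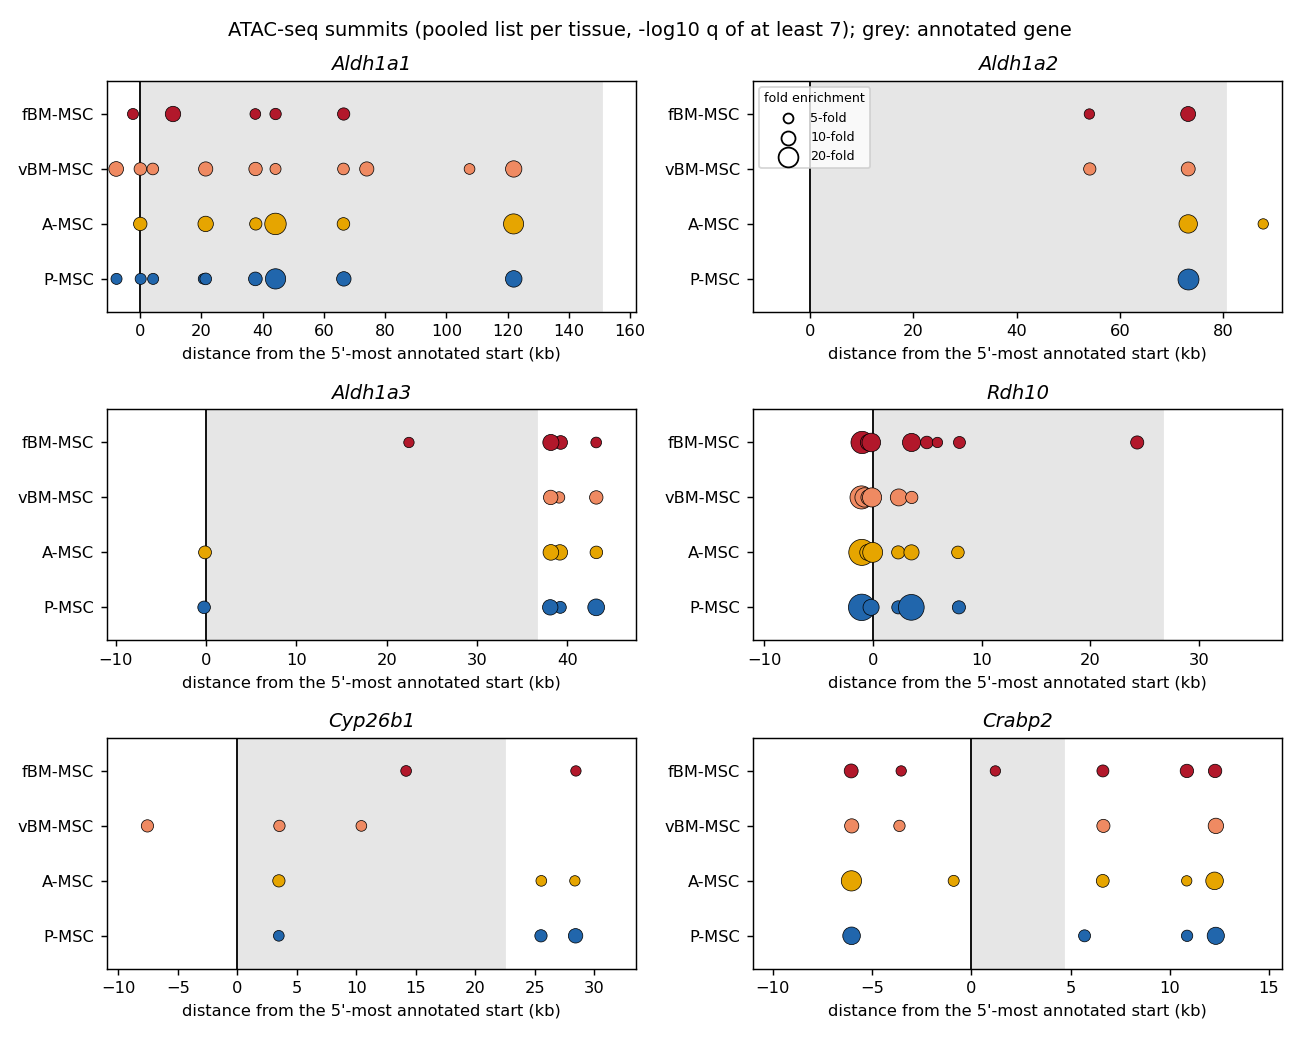
ATAC-seq summits with a −log10 q of at least 7 in and around 6 members, by distance from the 5′-most annotated start in kilobases, with the annotated gene in grey and point area proportional to fold enrichment. Each tissue has a row. Rdh10 has summits within 1 kb of its start in all 4 tissues (12.1-fold to 25.4-fold), Aldh1a3 in A-MSCs and P-MSCs, and Aldh1a2 in none.

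The binding proteins and the degrading enzymes had 1 promoter summit among them. Crabp2, chr3:87948693-87953372, had it in A-MSCs (6.25-fold, 890 bases before the start), a tissue with 29 counts of its mRNA in all. An upstream site at 6040 bases before the start was listed in all 4 tissues, highest in A-MSCs (21.0-fold) and lowest in fBM-MSCs (9.93-fold). A weaker one at 3580 bases was listed in fBM-MSCs (5.52-fold) and vBM-MSCs (6.62-fold), the tissues with Crabp2 mRNA. Crabp1, chr9:54764748-54773110, had no summit in or within 10 kb of the gene in any tissue, P-MSCs included. Cyp26b1, chr6:84571414-84593908, had 6 sites, none at a start and none shared by all 4 tissues. The most enriched lay downstream of the gene, at 10.7-fold in P-MSCs, where the mRNA was lowest, and 5.52-fold in A-MSCs and fBM-MSCs. Another downstream site was listed in A-MSCs and P-MSCs only, and a site 7564 bases upstream (7.73-fold) in vBM-MSCs only, where the mRNA was highest. Cyp26a1, chr19:37697808-37701536, had 1 site, 8115 bases upstream in P-MSCs (5.52-fold).

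The rest of the retinoid pathway was described with a list of 53 other genes, of which 33 passed the filter and 21 passed the test across the 4 tissues, which is near the share of all genes. By role, 3 of 5 tested genes of uptake and storage passed, 7 of 10 of retinol and retinal interconversion, 3 of 4 other receptors, 3 of 6 coregulators and 5 of 6 other retinoic acid targets. Neither the other aldehyde dehydrogenase tested, Aldh1a7, nor the other degrading enzyme, Cyp2s1, passed. The median log2 difference of the list lay between -0.22 (fBM-MSCs over vBM-MSCs) and 0.47 (vBM-MSCs over P-MSCs) in the 6 pairs, with the median of all tested genes between -0.01 and 0.03. Of the 33, those higher and lower in fBM-MSCs numbered 1 and 7 against vBM-MSCs (beside 5.24% and 7.56% of all genes), 8 and 9 against A-MSCs (20.6% and 20.3%) and 8 and 6 against P-MSCs (24.7% and 23%). In vBM-MSCs they numbered 4 and 3 against A-MSCs (13.2% and 12.4%) and 8 and 4 against P-MSCs (21% and 17.7%), and in A-MSCs 6 and 4 against P-MSCs (16% and 14.9%).

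Some genes of retinoid binding and retinol handling differed between the tissues, while others, such as Rdh5 and Dhrs4, did not pass the test across tissues. Fabp5, a fatty acid binding protein that also binds retinoic acid, averaged 576 TPM in vBM-MSCs, 395 in A-MSCs, 279 in P-MSCs and 109 in fBM-MSCs. The log2 difference of fBM-MSCs over vBM-MSCs was -2.39 ± 0.45 (adjusted p = 0.00632). Dhrs3, which turns retinal back into retinol, was 1.22 to 3.09 TPM in P-MSCs and 36.0 to 72.7 TPM in the other 8 libraries. Each of the other 3 tissues exceeded P-MSCs in Dhrs3, A-MSCs by 4.79 ± 0.40 on the log2 scale (adjusted p = 1.9e-05). Adh7, an alcohol dehydrogenase active on retinol, averaged 28.3 TPM in fBM-MSCs, 11.5 in vBM-MSCs, 9.55 in P-MSCs and 0.65 in A-MSCs. Its log2 difference of fBM-MSCs over A-MSCs was 5.41 ± 0.54 (adjusted p = 2.6e-05).

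The receptors that work with or beside RARB varied little by comparison. Rarg averaged 22.9 TPM in fBM-MSCs, 21.2 in vBM-MSCs, 13.4 in P-MSCs and 8.92 in A-MSCs, and Rara 12.1 TPM in A-MSCs, 9.80 in P-MSCs, 7.79 in fBM-MSCs and 12.9 in vBM-MSCs. Both passed across the 4 tissues (adjusted p = 0.000299 for Rarg and 0.00622 for Rara). Both were above Rarb in TPM in every tissue. Of the RXRs, Rxrb (6.93 to 9.18 TPM by tissue) did not pass (adjusted p = 0.72), Rxra passed (0.0131), and Rxrg was too low to test.

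Other genes known to respond to retinoic acid did not share 1 pattern. Tgm2, tissue transglutaminase, averaged 299 TPM in P-MSCs and 269 in A-MSCs, against 65.2 in vBM-MSCs and 12.1 in fBM-MSCs. Its log2 difference of fBM-MSCs over P-MSCs was -4.51 ± 0.26 (adjusted p = 3.7e-07). Rarres1 was read at 306 and 134 TPM in vBM-MSCs, 16.4 to 23.1 TPM in fBM-MSCs, 2.02 to 4.49 TPM in A-MSCs and 1.24 to 4.21 TPM in P-MSCs. vBM-MSCs exceeded P-MSCs in it by 6.43 ± 0.52 (adjusted p = 5.7e-06). Rarres2, which encodes chemerin, reached 2.96 to 11.9 TPM in A-MSCs and at most 1.07 TPM elsewhere. Meis1, a homeobox gene, averaged 11.2 TPM in P-MSCs, 7.73 in A-MSCs, 2.61 in fBM-MSCs and 1.06 in vBM-MSCs. Its log2 difference of vBM-MSCs over P-MSCs was -3.33 ± 0.44 (adjusted p = 0.000154).

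**Figure D5:**
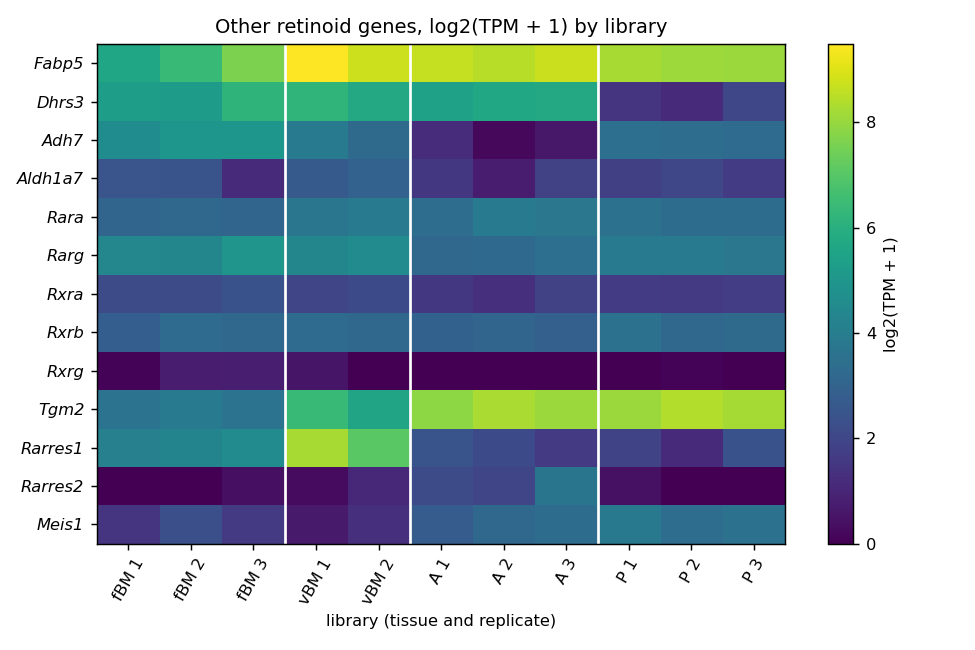
log2(TPM + 1) of other retinoid genes (rows) in the 11 RNA-seq libraries (columns, by tissue and replicate, with white lines between tissues). Dhrs3 is low in the 3 P-MSC libraries (1.22 to 3.09 TPM), Rarres1 is highest in the vBM-MSC libraries (134 and 306 TPM), and Tgm2 is high in the A-MSC and P-MSC libraries.

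The genes most like each member were taken by the root mean square difference of log2(TPM + 1), centred per gene, over the 11 libraries. Rarb and Cyp26a1, which were not past the test across tissues, were left out. The libraries share their tissues, so this is a description. Aldh1a3 was closest to Ifi27l2a (0.66) and Saa3 (0.82), which averaged 21.7 and 21.4 TPM in A-MSCs and at most 2.51 TPM elsewhere. Aldh1a2 was closest to Tagln2 (0.51) and Cdca5 (0.54), and Aldh1a1 to Tbxa2r (0.37) and Prss23 (0.38). Crabp1 was closest to Lhx9 (0.52), a homeobox gene that averaged 9.02 TPM in P-MSCs and at most 0.463 TPM elsewhere, and to Ggt1 (0.55). Cyp26b1 was closest to Foxd1 (0.28), a forkhead gene at 5.39 TPM in vBM-MSCs and 0.82 TPM in fBM-MSCs, and to Snap91 (0.34). Crabp2 was closest to Anxa8 (0.97) and Il34 (1.05), both highest in fBM-MSCs. Rdh10 was closest to Slc30a1 (0.16) and Pcdhb2 (0.17), where a small difference reflects how little Rdh10 itself varied (0.40 about its mean).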

How the data were processed

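RNA-seq of 11 libraries and 4 ATAC-seq peak lists were analysed, grouped by their sample labels. The authors made Smart-seq2 libraries (poly-A, no strand, no molecular identifiers) and deposited RSEM estimates from STAR alignments to mm10: the expected count of each gene, not normalized, and its TPM. The FPKM values beside them were not used. The authors called ATAC-seq peaks with MACS2 on pooled reads, after Trim Galore, Bowtie, Picard and the Tn5 shift. The deposited lists give each summit's fold enrichment, a ratio to the genome-wide background, and its −log10 p and −log10 q. Versions of these tools are not given in the sources used here. vBM-MSC replicate 3 was not analysed here.

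Expected counts were rounded to whole numbers, filtered to 1 CPM in at least 2 libraries, scaled by TMM and tested in 1 fit of all tissues with edgeR 4.0.16 (quasi-likelihood, R 4.3.3), which 12509 genes entered. p-values were adjusted over all of them by Benjamini-Hochberg. A standard error (SE) is the log2 difference divided by the square root of F. The script was tested on simulated data. Named by rule were all members and, of the other retinoid genes, those past the test across tissues with a mean of at least 5 TPM in the highest tissue and 3 times that of the lowest, plus Aldh1a7, Rara, Rarg and the RXRs. A gene named by this rule is not reported here. Members and lists were chosen with earlier results of these data known. Replicates are labelled biological, but which libraries share a mouse is not given, and the libraries were treated as independent. Coordinates are mm10 (GRCm38). RefSeq promoter windows were matched for 6 members, Aldh1a1 by both of its starts. Alternatives were RLE scaling, no filter, DESeq2 1.42.0, limma 3.58.1 on log2(TPM + 1), 2 tissues alone, a replicate block, each library left out, other peak thresholds and a 2 kb promoter.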

Additional observations from a re-analysis of the deposited data

How the results depend on the processing

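The 29 member differences called between tissues were recomputed under these alternatives as 490 values, of which none changed direction, 459 stayed past the threshold and 31 did not, and 21 differences lost the call in no alternative. In a fit of the marrow libraries alone, 1 member differed between fBM-MSCs and vBM-MSCs, against 4 with all tissues. With a −log10 q of at least 20, members with a promoter summit numbered 2 in A-MSCs, 2 in P-MSCs, 1 in fBM-MSCs and 1 in vBM-MSCs, and with every deposited summit 4 in fBM-MSCs. Leaving out each library in turn gave 6 to 8 members differing among the 4 tissues, 2 to 6 between fBM-MSCs and vBM-MSCs, 4 to 6 between fBM-MSCs and A-MSCs, 4 to 5 between fBM-MSCs and P-MSCs, 4 to 5 between vBM-MSCs and A-MSCs, 6 to 7 between vBM-MSCs and P-MSCs and 2 to 5 between A-MSCs and P-MSCs, and 18 to 22 genes of the wider retinoid list. With each tissue's mean taken out, same-numbered libraries of different tissues correlated from -0.03 to 0.12 over 15 pairs. Of the 11 libraries, 5 correlated best with their own number. With 2 or 3 libraries per tissue, these values cannot show whether a replicate number marks a mouse. With the replicate number as a block, 7 members differed among the 4 tissues and 4, 5, 4, 4, 7 and 3 in the 6 pairs in the order above, and 18 wider genes. The block ended the calls of Rarb between fBM-MSCs and P-MSCs (adjusted p = 0.0806, edgeR) and of Crabp1 between A-MSCs and P-MSCs (0.0771), and calls over all genes between fBM-MSCs and vBM-MSCs fell from 1601 to 1326. Where 1 vBM-MSC library remained, it was assumed to vary like the other tissues' libraries. The cause of these changes was not tested. Low counts limit Cyp26a1, Rarb, Crabp1 in marrow and Cyp26b1 in P-MSCs, and 2 libraries limit vBM-MSCs.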
